A study of Mus musculus with 96 samples.

Results

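The genes described here are 8 members of the fibroblast growth factor (FGF) system, the receptors Fgfr1, Fgfr2 and Fgfr3 and the ligands Fgf2, Fgf7, Fgf9, Fgf18 and Fgf23. They were taken by gene symbol, with the transcripts of each gene summed, from a table of 37945 genes. All 8 are among the 15760 genes that reached at least 0.5 transcripts per 1000000 (TPM) in 2 or more libraries and were tested, Fgf23 only through 2 libraries. The study sequenced RNA from bone-forming cells (osteoblasts) cultured from the skull vault of newborn mice of 42 Collaborative Cross strains, inbred lines derived from crosses among several founder strains. In every strain the cells were released by enzymes from calvariae of pups aged 3 to 5 days, grown for 48 h and then held for 10 days in a mineralizing medium (beta-glycerol phosphate and ascorbic acid were added), so the groups differ in the label of strain alone and there is no untreated group. The 96 samples gave 95 independent libraries, because 1 CC030 sample was sequenced 2 times and entered as the mean of its runs; 3 strains are represented by 1 library (CC011, CC024, CC035), 31 by 2, 2 by 3 and 6 by 4. Sex, litter, batch and the origin of the repeat libraries (other animals, other cultures or the same ones) are not stated in the labels. The p-values of the strain tests therefore set differences against spread between these libraries alone, which may be technical. Those of the relations measure scatter between strain means.

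FGF ligands are secreted proteins that bind receptor tyrosine kinases together with heparan sulfate chains on the cell surface; the activated receptor passes its signal through the adaptor FRS2 to the Ras and MAP kinase pathway, which induces transcription factors of the Etv group and feedback inhibitors of the Sprouty, Spred and Dusp families. Each receptor gene can use alternative exons for the third immunoglobulin domain, called b and c, that set which ligands bind; the b forms are typical of epithelium and the c forms of mesenchyme. In the skull, activating mutations of these receptors are known causes of early suture fusion, and Fgf23 is a hormone made by bone cells that lowers blood phosphate and needs the co-receptor Klotho.

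Estimated depth was 21.04 to 40.16 Mreads per library (1 Mread is 1000000 reads), with 1 CC075 library at 83.9 Mreads. The cultures carried osteoblast markers at a summed level of 19566 TPM (median of 95 libraries; range 10770 to 31653 for 14 markers). Macrophage markers were present and varied widely, from 14.3 to 2087 TPM for 14 markers with a median of 196, and were highest in the CC030 libraries at 2087 and 1607. Marker sums of other mesenchymal types were present as well, with medians of 578 TPM for 7 smooth muscle and pericyte genes, 518 TPM for 7 suture and tendon genes and 55.3 TPM for 11 chondrocyte genes. The 6 adipocyte markers summed to 27.96 TPM (9.13 to 253), with Adipoq at a median of 0, and the 7 osteoclast markers to 10.3 TPM, with Calcr at 0. The lowest sums were those of skeletal muscle (1.87 TPM; Myod1, Myog and Ckm at a median of 0), endothelium (0.927 TPM; Tie1 and Emcn at 0) and epithelium (0.480 TPM; Krt5, Krt14 and Krt8 at 0). These are bulk cultures, in which fewer cells of a type and less RNA per cell cannot be told apart. Libraries of 1 strain did not always resemble each other: the CC051 libraries had osteoblast marker sums of 10770 and 27158 TPM, and the 4 CC004 libraries 17190, 18035, 31653 and 27741.

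Fgfr2 was the most abundant member, and the receptors together stood far above the ligands. Levels are given in TPM, a value per transcript length, after scaling between libraries. Summed over the 3 receptors the median library held 190.7 TPM (62.7 to 288), against 24.3 TPM (15.2 to 79.4) over the 5 ligands. Fgfr2, the receptor linked to Apert and Crouzon syndromes, had a median of 137 TPM (39.7 to 216) and made up 71.9% of the receptor sum (42.8 to 80.3%). Fgfr1, a receptor expressed widely in mesenchyme, followed at 32.7 TPM (17.9 to 53.8). Fgfr3, whose activating mutations cause achondroplasia, stood at 18.98 TPM (2.66 to 44.2). Among the ligands, Fgf7, known as keratinocyte growth factor, was highest at 19.9 TPM (11.2 to 75.9) and made up 81.8% of the ligand sum (64.6 to 95.6%). A median of 33.2% of Fgf7 was ENSMUST00000138576, annotated as a processed transcript and not as protein coding. Fgf2, a mitogen that also binds heparan sulfate matrix, had a median of 2.21 TPM (1.03 to 5.74). Fgf9, a ligand of the c receptor forms, had 1.33 TPM (0.301 to 3.02). Fgf18, a ligand needed for normal skull bone formation, had 0.507 TPM (0.0711 to 2.27), and Fgf23 had 0.0226 TPM (0 to 0.694).

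In single libraries this order was nearly fixed at most steps. Fgfr2 was above Fgfr1 in 94 of 95 libraries, Fgfr1 above Fgf7 in 86, Fgfr3 above Fgf2 in 95, Fgf2 above Fgf9 in 79, Fgf9 above Fgf18 in 80 and Fgf18 above Fgf23 in 94. The neighbours Fgf7 and Fgfr3 did not separate: Fgf7 was higher in 57 of 95 libraries, with a ratio of medians of 1.0498. Estimated reads show how firmly each level was measured. The median library held 12150 reads of Fgfr2, 3770 of Fgfr1, 2439 of Fgfr3, 1248 of Fgf7, 94.0 of Fgf9, 33.2 of Fgf2 and 16.5 of Fgf18. Fgf23 rested on about 1.02 reads in the median library and was listed at 0 in 30 libraries.

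**Figure D1:**
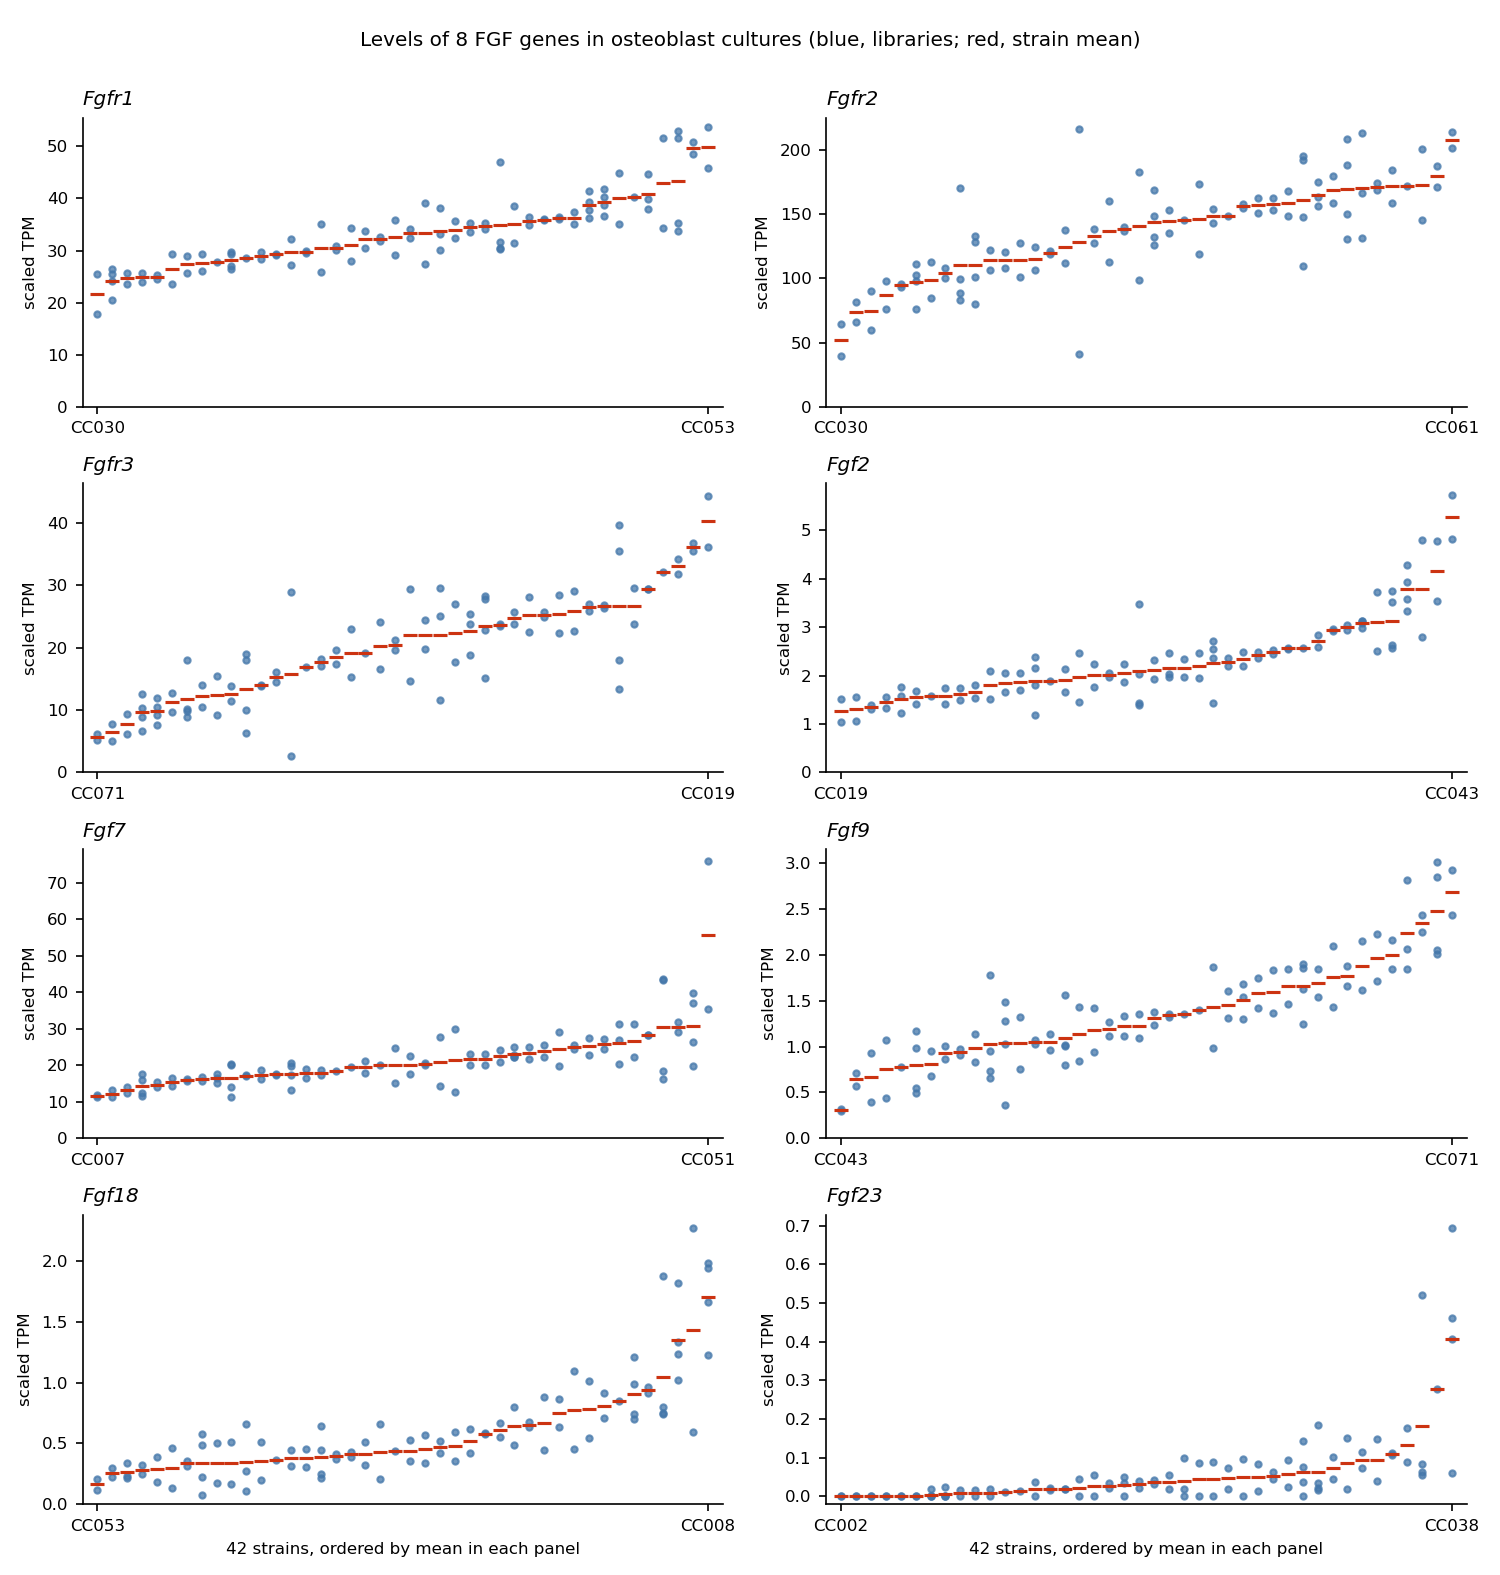
Level of each FGF gene (vertical axis, scaled TPM on a linear scale) in 42 strains ordered by their mean within each panel; blue points are libraries and red marks strain means. Fgfr3 runs from 5.67 TPM in CC071 to 40.2 TPM in CC019, the upper end of Fgf7 is CC051 with libraries at 75.9 and 35.5 TPM, and Fgf23 lies near 0 in nearly all strains.

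The receptors were mainly of the c form. Exon b of Fgfr2, the alternative that makes the classical Fgf7 receptor, is printed in lower case to show the stretch that the minor form carries (148 bases; GENCODE vM21 transcripts, GRCm38; 5′ to 3′).
Fgfr2 exon b: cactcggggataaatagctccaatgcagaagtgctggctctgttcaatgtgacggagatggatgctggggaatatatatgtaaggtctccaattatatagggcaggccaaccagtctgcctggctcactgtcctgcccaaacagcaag
Transcripts with exon c took a median of 94.7% (90.1 to 98.3%) of the Fgfr1 TPM that could be assigned to 1 of these forms. The c share of Fgfr2 was 89.0% (86.1 to 92.1%), and that of Fgfr3 was 91.1% (81.3 to 98.7%). In level, c against b transcripts had medians of 25.8 and 1.45 TPM for Fgfr1, 79.7 and 9.39 TPM for Fgfr2, and 15.3 and 1.62 TPM for Fgfr3. The Fgfr2 b form was present at 9.39 TPM in cultures where Krt5, Krt14 and Krt8 were at a median of 0. How the deposited values divided reads among transcripts that share most exons is not stated in the labels or notes, and the shares inherit that uncertainty.

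Fgfr2 was carried mainly by a pair of c transcripts. ENSMUST00000117872, which skips the exon of the first immunoglobulin domain and lacks 6 bases at a splice site in the juxtamembrane region, had a median of 39.7 TPM (29.0% of the gene). ENSMUST00000122054, with that exon and the 6 bases, had 38.5 TPM (28.6%). The juxtamembrane stretch is printed for a transcript with the 6 bases (in capitals) and for one without them, since the site lies where FRS2 binds.
Fgfr2 junction with the 6 bases: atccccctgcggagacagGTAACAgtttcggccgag
Fgfr2 junction without the 6 bases: atccccctgcggagacaggtttcggccgag
Across libraries the transcripts without the 6 bases took 45.8% of classed Fgfr2 TPM (38.7 to 52.5%). The first immunoglobulin domain was included in 44.9% (39.8 to 56.3%) of classed Fgfr2 TPM and 40.4% (26.8 to 51.0%) of classed Fgfr1 TPM.

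The c transcript ENSMUST00000119260, which includes the first immunoglobulin domain and lacks the 6 bases, separated the strains. Its strain means were 13.04 ± 3.30 TPM in CC053 (SD, n = 2), 11.2 ± 3.91 in CC061 (n = 2), 9.62 in CC024 (n = 1), 9.46 ± 1.82 in CC019 (n = 2), 8.82 ± 6.91 in CC051 (n = 2), 8.04 ± 0.815 in CC055 (n = 2) and 7.62 ± 1.68 in CC059 (n = 3). The other 35 strains had means of 1.55 TPM or less, down to 0.0172 in CC057. Libraries overlapped at 1 place, where a CC051 library at 3.93 TPM lay just under a CC008 library at 4.02 TPM. The transcript made up 4.67 to 8.23% of Fgfr2 in the 7 high strains. Gene-level Fgfr2 did not follow this split: CC055 had 98.6 TPM of Fgfr2 and CC061 208 TPM. The strain test on ENSMUST00000119260 gave an adjusted p of 2.1e-15 and a range between strain means of 4.69 on the log2 scale. Over all transcripts tested, 53.3% passed the same test, and of the members' 49 tested transcripts 34 did. The 7 strains were singled out after their values were seen.

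**Figure D2:**
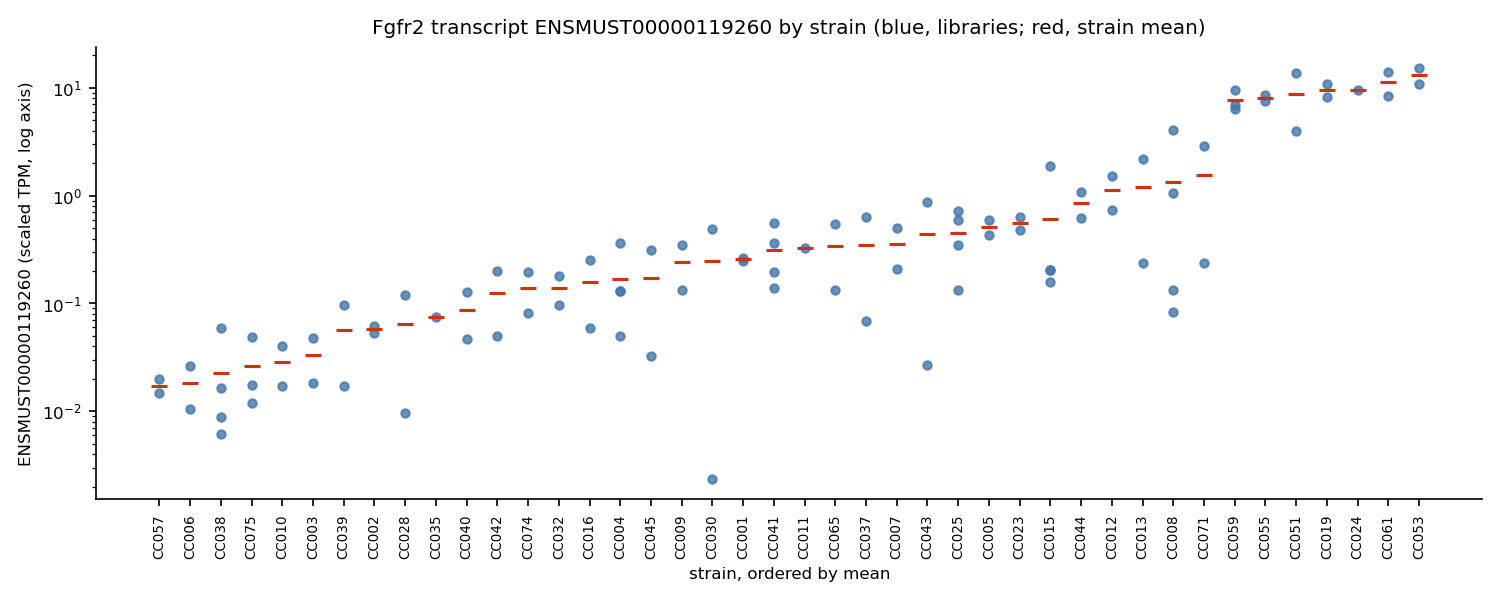
Level of the Fgfr2 transcript ENSMUST00000119260 (vertical axis, scaled TPM on a log axis) in each of 42 strains ordered by mean; blue points are libraries and red marks strain means. From CC059 upward 7 strains have means of 7.62 to 13.04 TPM, while the next strain, CC071, has 1.55 TPM.

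The first comparison asked whether the members differed between strains by more than the spread between libraries of a strain, over the 39 strains with at least 2 libraries (92 libraries). An F test in limma across all genes called 81.5% of genes, so a call alone does not set a gene apart. The 7 members other than Fgf23 passed it. Over the 20 strains with title numbers 20 or more apart alone, far fewer of all genes passed (counts in the last section). There Fgfr2, Fgfr3 and Fgf7 missed the threshold (adjusted p = 0.12, 0.14 and 0.15). Over the 19 with close numbers all 7 members passed. Their share of variance between strains was 0.649 for Fgfr1, 0.470 for Fgfr2, 0.567 for Fgfr3, 0.689 for Fgf2, 0.496 for Fgf7, 0.644 for Fgf9 and 0.583 for Fgf18, beside a median of 0.471 over all genes tested. The range between the highest and the lowest strain on the log2(TPM + 0.5) scale was 1.20 for Fgfr1, 2.03 for Fgfr2, 2.72 for Fgfr3, 1.71 for Fgf2, 2.11 for Fgf7, 1.97 for Fgf9 and 1.72 for Fgf18, beside a median of 1.02 over all genes. Fgf23 also had an adjusted p of 0.0050, but it entered the test only through the libraries in which it is high, and without 1 of them (CC038 replicate 2) its adjusted p was 0.057. Each strain was then set against the mean of the others, with p-values adjusted over all genes and strains. This gave 55 of 312 member and strain pairs past the threshold (17.6%), 28 higher and 27 lower, beside 14.8% of all gene and strain pairs (7.73% higher and 7.08% lower). Without Fgf23 it gave 53 of 273. Of the 55, 12 stayed past the threshold whichever single library was left out.

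CC043 departed from the rest in 6 members and in both directions. Its libraries had Fgfr1 at 48.6 and 50.8 TPM and Fgf2 at 5.74 and 4.82 TPM. Its levels were low for Fgfr2 at 65.8 and 81.7 TPM, Fgfr3 at 6.17 and 9.36 TPM, Fgf7 at 13.2 and 11.2 TPM and Fgf9 at 0.301 and 0.316 TPM. CC043 thus held the highest strain mean of Fgf2 (5.28 ± 0.648 TPM, SD, n = 2) and the lowest of Fgf9 (0.308 ± 0.0108 TPM, n = 2). The differences from the rest were 1.12 ± 0.17 (SE) on the log2 scale for Fgf2 (adjusted p = 1.0e-06) and −1.17 ± 0.20 for Fgf9 (adjusted p = 1.4e-05). Those of Fgf2, Fgf9 and Fgfr1 (0.62 ± 0.13) held without either library. All 6 remained past the threshold when the osteoblast and macrophage marker scores of the libraries were added to the fit.

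CC030 was low in all 3 receptors. Its libraries had Fgfr2 at 39.7 and 64.4 TPM, among the lowest of all libraries. Fgfr1 stood at 17.9 and 25.4 TPM and Fgfr3 at 5.12 and 7.73 TPM. On the log2 scale Fgfr2 was lower than the rest by −1.36 ± 0.25 (adjusted p = 5.4e-05), Fgfr3 by −1.47 (adjusted p = 0.0019) and Fgfr1 by −0.62 ± 0.13 (adjusted p = 0.00033). Fgf2 was higher in CC030 (4.79 and 3.54 TPM). Fgf18 was at 2.27 and 0.589 TPM, and its difference of 0.79 fell to 0.12 (adjusted p = 0.85) without the first library. Without that library the differences were −0.37 for Fgfr1, −1.19 for Fgfr3 and 0.60 for Fgf2, and these calls were lost too. Only the call of Fgfr2 held without either CC030 library. CC030 also had an osteoblast marker score of −2.29 and the highest macrophage score, 2.08. With these scores in the fit none of its 5 differences remained, and that of Fgfr2 became −0.06.

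Fgfr3 varied the most among the receptors. The lowest strain was CC071, with libraries at 6.2 and 5.14 TPM, and the highest was CC019, with 36.2 and 44.2 TPM. CC061 (36.8 and 35.5 TPM) lay beside CC019, and CC061 also held the highest Fgfr2, at 201.5 and 214.3 TPM. Against the rest, Fgfr3 was lower in CC071 by −1.62 ± 0.35 on the log2 scale (adjusted p = 0.00056) and higher in CC019 by 1.17 ± 0.35 (adjusted p = 0.0148). CC030, CC043, CC008 and CC015 were also lower and CC061 higher. The call of CC019 was lost without either of its libraries (adjusted p = 0.064 and 0.17), as was that of CC061 (0.19 and 0.16). With the marker scores in the fit the Fgfr3 difference was 0.23 in CC071 and 0.28 in CC030, on the other side of 0. It was 0.26 in CC019 (adjusted p = 0.43) and 0.05 in CC061 (adjusted p = 0.90), and none of these passed. The lower calls remained in CC008 (−0.58, adjusted p = 0.0027), CC015 (−0.63, adjusted p = 0.00014) and CC043 (−0.73, adjusted p = 0.0034).

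Fgfr1 kept the narrowest range of the 7 members other than Fgf23. CC053 was highest with 53.8 and 45.9 TPM, and CC030 lowest. The 4 CC008 libraries were all low, at 25.6, 20.4, 26.5 and 24.2 TPM, which gave −0.44 ± 0.09 on the log2 scale (adjusted p = 0.00033) and held without any 1 of them. CC004 had 35.2, 33.8, 53.0 and 51.6 TPM in its 4 libraries, and its higher call (0.39 ± 0.09) became 0.28 (adjusted p = 0.052) without the third. In these libraries Fgfr2 was at 147.9, 109.7, 195.5 and 191.97 TPM, Fgfr3 at 18.0, 13.4, 39.7 and 35.4 TPM and Fgf7 at 19.7, 26.4, 39.6 and 37.0 TPM, so the first pair of libraries was lower than the second pair in each of these genes. The libraries of each pair carry neighbouring numbers in their titles, and what these stand for is not stated.

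Fgf2, which was low in level, had the largest share of variance between strains among the members. Besides CC043 and CC030, the 4 CC038 libraries were high at 3.59, 3.93, 4.28 and 3.34 TPM, a difference of 0.67 ± 0.12 on the log2 scale (adjusted p = 3.0e-05) that held without any 1 library. CC015 libraries lay close together at 3.13, 2.98, 3.09 and 3.13 TPM. At the other end, CC019 libraries had 1.03 and 1.51 TPM, and CC061 1.39 and 1.32 TPM. In total 6 strains were higher and 5 lower. Nudt6, a gene on the strand opposite to Fgf2 that overlaps it, had a median of 2.87 TPM (1.77 to 6.72) and an r of 0.630 with Fgf2 over 42 strains; whether the deposited values used the strand of the reads is not given, so reads of the pair may not have been told apart.

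Fgf7 was highest in CC051 and lowest in CC007. The CC051 libraries were far apart, at 75.9 and 35.5 TPM, and the library with more Fgf7 was the one with an osteoblast marker sum of 10770 TPM, Fgfr2 at 40.7 against 216 TPM and Fgfr3 at 2.66 against 29.0 TPM. The part of these marker levels in the Fgf7 difference was not tested. CC051 was higher than the rest by 1.37 ± 0.24 on the log2 scale (adjusted p = 1.9e-05), and by 0.83 (adjusted p = 0.072) without that library. CC007 libraries had 11.9 and 11.3 TPM. CC041 showed a pair at 43.4 and 43.6 TPM (titles 19 and 20) and a pair at 16.4 and 18.3 TPM (titles 32 and 39), and did not pass the threshold.

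Fgf9 was highest in CC071, with libraries at 2.93 and 2.44 TPM, and high in CC025, at 3.02, 2.01, 2.85 and 2.05 TPM. The difference of CC025 from the rest was 0.75 ± 0.14 on the log2 scale (adjusted p = 0.00010) and held without any 1 library. CC039 and CC059 were also higher, and CC015, CC019, CC023, CC028 and CC043 lower. Of these calls only that of CC043 held without any 1 library, and that of CC071 did not hold either. For CC023 (0.396 and 0.932 TPM) and CC028 (0.434 and 1.07 TPM) the call rested on the lower library, and without it the differences were −0.33 (adjusted p = 0.48) and −0.20 (adjusted p = 0.71).

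Fgf18 reached 0.5 TPM in 48 libraries. CC008 had the highest mean, 1.70 ± 0.351 TPM (SD, n = 4), from libraries at 1.99, 1.22, 1.94 and 1.66 TPM. CC041 was also high, with 1.02, 1.82, 1.24 and 1.33 TPM. Both were higher than the rest, by 1.13 ± 0.16 (adjusted p = 3.6e-07) and 0.87 ± 0.16 (adjusted p = 6.2e-05) on the log2 scale, and both calls held without any 1 library. CC053, which had the most Fgfr1, had the least Fgf18, at 0.119 and 0.21 TPM; its call (adjusted p = 0.048) was lost in 45 of 92 fits that left out 1 library.

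Fgf23 was close to the limit of detection except in a few libraries. CC038 had 0.0609, 0.694, 0.462 and 0.408 TPM, which correspond to about 4, 43, 26 and 24 reads. A CC004 library had 0.520 TPM (38 reads) beside 3 at 0.0843, 0.0558 and 0.0627 TPM. In the 87 libraries of the other strains the level was 0 to 0.278 TPM, at most 12 reads. CC038 differed from the rest by 0.70 ± 0.09 on the log2(TPM + 0.5) scale, which understates the change of so low a gene. Since Fgf23 reached 0.5 TPM only through 1 library of each of these strains, its p is given from the fit with no filter on low values (adjusted p = 6.3e-08 for CC038). CC004 was not past the threshold without its high library (0.06, adjusted p = 0.72). The macrophage marker sums of the CC038 libraries were, in the same order, 144, 689, 466 and 378 TPM, and those of the CC004 libraries 729, 981, 229 and 280 TPM. The high libraries also had more adipocyte marker signal than the low one of CC038 (180, 253 and 58.4 against 24.8 TPM). The part of these markers in the level of Fgf23 was not tested beyond this: with the osteoblast and macrophage scores in the fit the CC038 difference was 0.58.

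**Figure D3:**
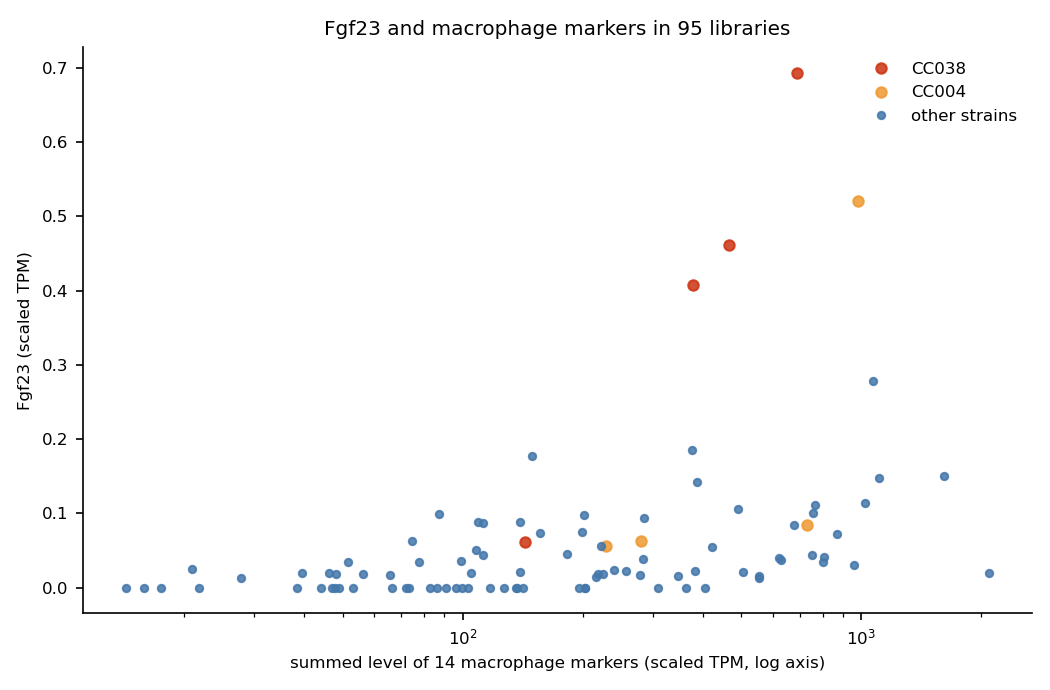
Fgf23 (vertical axis, scaled TPM) against the summed level of 14 macrophage markers (horizontal axis, scaled TPM on a log axis) in 95 libraries; red points are the 4 CC038 libraries, orange the 4 CC004 libraries and blue the 87 of other strains. The CC038 libraries at 0.408 to 0.694 TPM and 1 CC004 library at 0.520 TPM lie above all others, whose highest value is 0.278 TPM.

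Relations over the 42 strain means placed Fgfr2 and Fgfr3 with the osteoblast markers. A score, the mean of standardised levels over 14 markers such as Runx2, Sp7, Bglap and Ibsp, was set against every gene, and 22.6% of genes were related to it (10.2% positively, 12.4% negatively) after adjustment over all genes and 10 covariates. Fgfr3 had r = 0.888 with the score (rho = 0.869; adjusted p = 5.4e-13; permutation p = 1e-05, the smallest that 100000 permutations can give), and r = 0.855 without CC030 and CC071, the strains farthest from the median. Fgfr2 had r = 0.765 (rho = 0.672; adjusted p = 3.2e-07; permutation p = 1e-05), and 0.681 without them. Fgf2 ran the other way, with r = −0.492 (rho = −0.458; adjusted p = 0.0111; permutation p = 0.00124), but was at −0.408 (adjusted p = 0.067) without CC030 alone. The values for Fgf18 (−0.369), Fgfr1 (0.277), Fgf23 (−0.152), Fgf9 (−0.0605) and Fgf7 (−0.0270) did not pass. Strains whose title numbers lay within 5 of each other and strains with numbers 20 or more apart gave like values for Fgfr3, 0.898 and 0.892. For Fgfr2 the values were 0.724 and 0.860. Those for Fgf2 were farther apart, at −0.665 and −0.317.

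**Figure D4:**
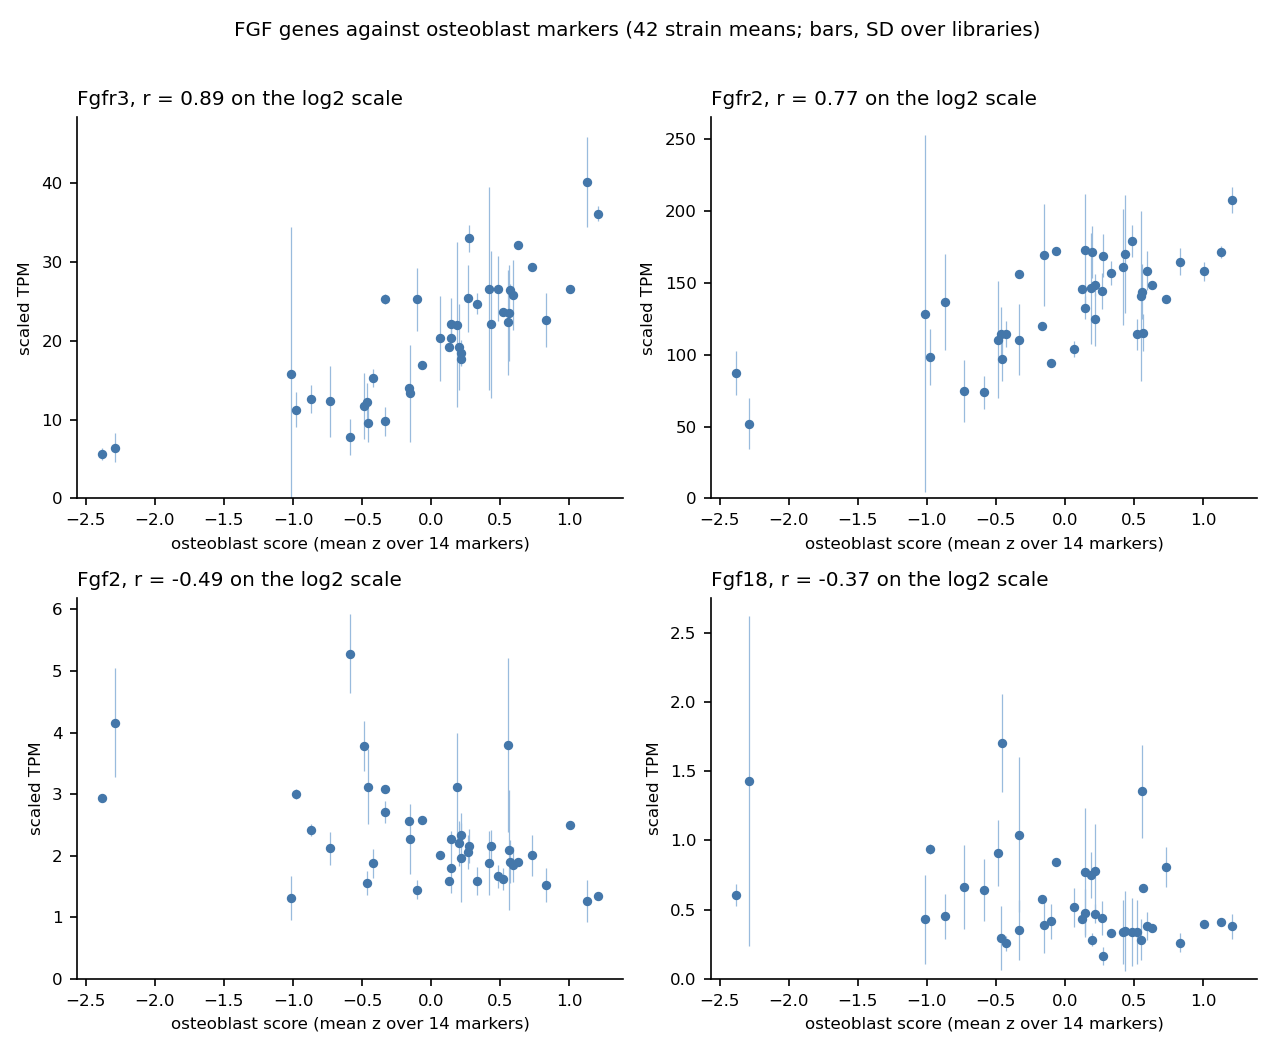
Strain means of Fgfr3, Fgfr2, Fgf2 and Fgf18 (vertical axes, scaled TPM) against the osteoblast marker score (horizontal axes, mean standardised level over 14 markers); each point is 1 of 42 strains and bars are the SD over its libraries (none where n = 1). Fgfr3 and Fgfr2 rise with the score (r = 0.888 and 0.765 on the log2 scale), Fgf2 declines (r = −0.492), and CC030 and CC071 lie at the far left with scores of −2.29 and −2.38.

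The macrophage score was related to 21.5% of all genes (11.9% positively, 9.57% negatively). Fgfr2 was lower where macrophage markers were higher, with r = −0.551 (rho = −0.530; adjusted p = 0.0027; permutation p = 0.00013) and −0.468 without CC030 and CC041. Fgf23 was higher, with r = 0.512 (rho = 0.682; permutation p = 0.00019; adjusted p = 0.0117 in the fit with no filter on low values) and 0.511 without them. Without CC004 and CC038, the strains through which Fgf23 passed the filter, r was 0.598 (adjusted p = 0.0020 with no filter, a setting chosen after seeing the data). Most of these strain means rest on a few reads. The other 6 members did not pass; Fgfr1 had −0.365 and Fgf9 −0.318. Of the 14 macrophage markers themselves, 14 were negatively related to Fgfr2, beside 11.9% of all genes (and 9.0% positively). Of these markers 8 were also negatively related to the osteoblast score and 0 positively, with a median r of −0.406. Over all genes these shares were 12.4% and 10.2%. The part of the osteoblast score in the relation of Fgfr2 to macrophage markers was not tested. The relation of Fgf23 was not particular to macrophage markers. Its median r was 0.587 with the 6 adipocyte markers and 0.481 with the 14 macrophage markers. An adipocyte score was not tested.

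Among the 28 pairs of members 7 were related. Over all genes, 11.5% of relations with these 8 members passed the same threshold: 4.73% for Fgfr1, 20.9% for Fgfr2, 21.1% for Fgfr3, 18.2% for Fgf2, 0.635% for Fgf7, 4.3% for Fgf9, 11.2% for Fgf18 and 10.8% for Fgf23. Fgfr2 and Fgfr3 went together (r = 0.747; rho = 0.642; adjusted p = 9.1e-07; permutation p = 1e-05; 0.707 without CC030 and CC032), and so did Fgf2 and Fgf18 (r = 0.492; rho = 0.476; adjusted p = 0.011; permutation p = 0.00106; 0.457 without CC030 and CC043). Fgf2 ran against Fgfr3 (r = −0.583; rho = −0.500; adjusted p = 0.0013; permutation p = 5e-05; −0.515 without CC030 and CC071). These 3 pairs held whichever strain was left out. The other 4 were Fgf2 with Fgfr2 (−0.477), and Fgf18 with Fgfr3 (−0.471), Fgfr2 (−0.463) and Fgfr1 (−0.420). Without CC030 all 4 missed the threshold (−0.384, −0.405, −0.369 and −0.347; adjusted p from 0.070 to 0.14). The deviations of single libraries from their strain mean, a description with no test, gave r = 0.895 for Fgfr2 and Fgfr3 and −0.595 for Fgf2 and Fgf7. Fgf7 and Fgf9 passed with no other member.

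**Figure D5:**
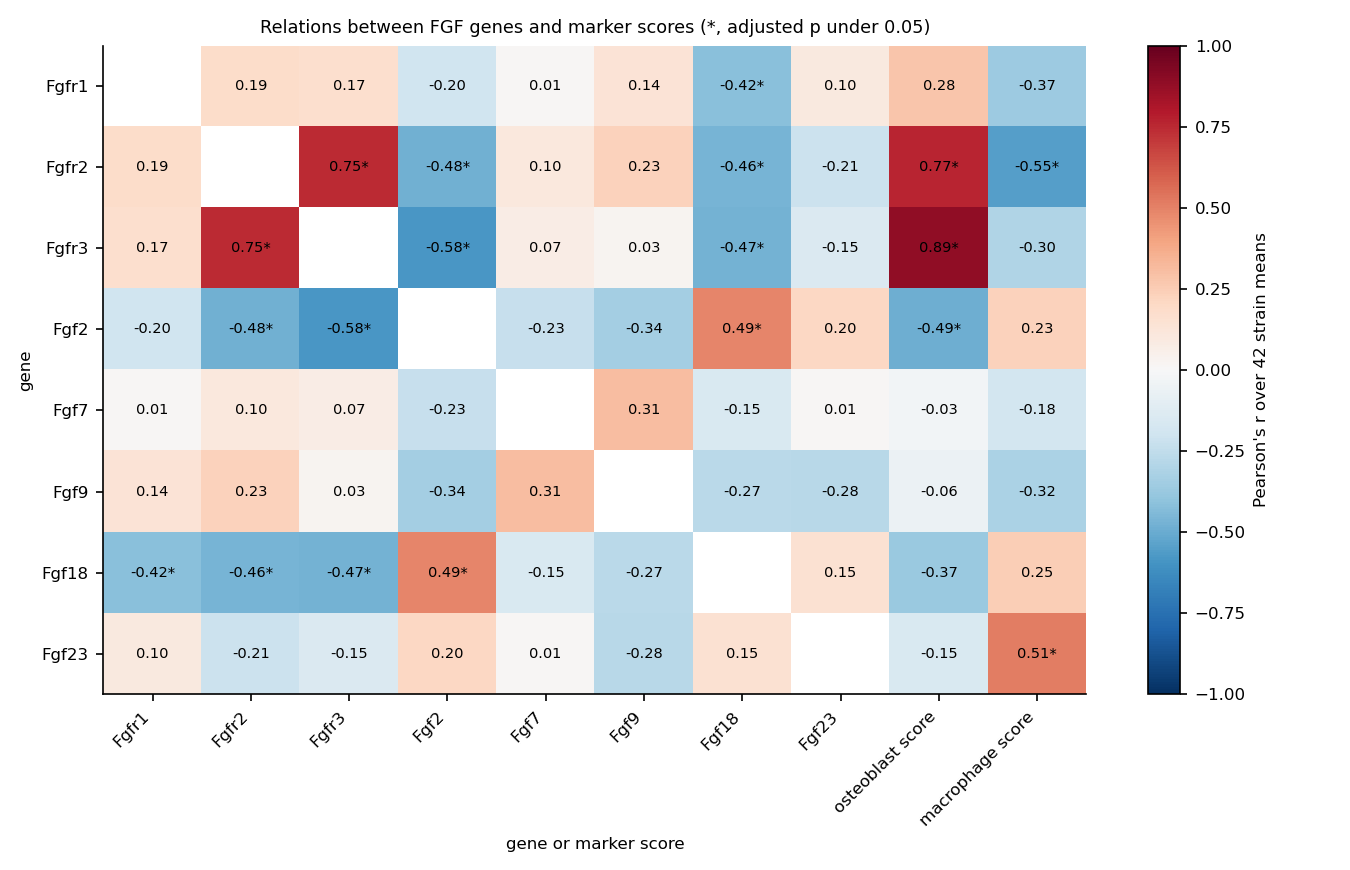
Pearson's r over 42 strain means between the members (rows) and the members and the marker scores (columns), on the log2(TPM + 0.5) scale; colour runs from −1 (blue) to 1 (red) and a star marks an adjusted p under 0.05. Fgfr2, Fgfr3 and the osteoblast score form a positive block (0.747 to 0.888), and Fgf2 and Fgf18 have negative values with Fgfr2 and Fgfr3.

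The genes with the strain pattern most like each member were found by Pearson's r over 42 strains. They were sought among 11931 genes with a mean level of about 1 TPM or more (Marco, named below, had 0.904 scaled TPM). Closest to Fgfr3 were Mef2c (0.916), a transcription factor active in osteocytes, Dkk1 (0.907), a secreted Wnt inhibitor, Pth1r (0.904), the parathyroid hormone receptor, Sost (0.900), the osteocyte product sclerostin, and Ptprz1 (0.895). Pth1r is also 1 of the osteoblast score markers. Sgms1 (−0.895), a sphingomyelin synthase, and Arhgef40 (−0.845) were most opposed. Closest to Fgfr2 were Lmo7 (0.848), Fat3 (0.839), Slc8a3 (0.821), the proteoglycan Gpc1 (0.805) and Nuak1 (0.803), with Il4ra (−0.839), a cytokine receptor, and Medag (−0.821) opposed. Fgfr1 was most like Ash2l (0.651), a histone methyltransferase subunit, and Pard3 (0.651), a polarity protein, both on its own chromosome. Of these, Ash2l is separated from it by 7 protein-coding genes in RefSeq; Rbm22 (0.634), Bola3 (0.607) and Nap1l1 (0.587) followed, and Mical1 (−0.646) and Vamp8 (−0.605) were opposed.

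For the ligands the likeness was strongest for Fgf2. Its closest genes were Rtkn (0.811), Tmem200a (0.805), Tubb2a (0.796) and Ccdc102a (0.793), and Mrpl24 (−0.822) and Atf5 (−0.818), a stress-response transcription factor, were opposed. Fgf23 was most like Hp (0.766), which encodes haptoglobin, the chemokine Ccl8 (0.728), the macrophage receptor Marco (0.715), the lipase Lipe (0.715) and B4galt5 (0.700). Most strain means of Fgf23 rest on a few reads. This ranking includes CC004 and CC038, the strains through which Fgf23 passed the filter, and was not repeated without them. Fgf18 was most like Ptgfrn (0.723), Pik3c2a (0.683), Sptbn1 (0.682), Timeless (0.666) and Susd2 (0.656), with Lyrm4 (−0.702) and Zdhhc4 (−0.693) opposed. Fgf9 was most like Jdp2 (0.643), Tspyl4 (0.634), Zbtb18 (0.622), Pcx (0.621) and Ddit3 (0.610), which encodes the stress factor CHOP; Txnip (−0.640) and its relative Arrdc4 (−0.621), both induced by glucose, were opposed. Fgf7 had the weakest likeness, with Ppp1r15b (0.607) first and Slc7a2 (0.557), Bphl (0.549) and S1pr1 (0.527) after it.

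The rest of the pathway was taken from 8 gene lists of 83 genes, of which 68 were tested and 59 differed between strains (81.5% over all genes). Of 17 other Fgf genes only 6 reached the filter. Fgf21 had the highest median of them, 1.88 TPM (0 to 20.6), with an adjusted p of 0.056. Fgf1, a ligand of every FGF receptor, had 0.582 TPM and was highest in CC043, at a mean of 2.70 TPM. Of 9 other receptors and co-receptors 6 were tested and 5 passed; the fourth receptor gene, Fgfr4, had a median of 0.0376 TPM and the Klotho gene Kl 0 (at most 0.0283 TPM), and neither was tested. Heparan sulfate proteoglycans and FGF binding proteins passed in 10 of 11. Gpc1, which encodes glypican-1, was the most abundant at 228 TPM (59.4 to 383), with CC016 highest and CC030 lowest at a mean of 77.2 TPM; it had r = 0.805 with Fgfr2. Sdc2, a syndecan, ran from 22.9 TPM in CC039 to 125.9 TPM in CC013.

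Signal adaptors and kinases were the steadiest list. They passed in 8 of 12, with a median range of 0.61 on the log2 scale; Shc1 had 63.8 TPM and an adjusted p of 0.067. Feedback inhibitors passed in 10 of 10 with a median range of 1.51. Dusp6, a phosphatase of ERK, had 9.67 TPM and was highest in CC071 at a mean of 27.8 TPM, and Dusp4, its relative, was highest in CC030 at 4.73 TPM. The Etv factors passed in 3 of 3. Etv5 was highest in CC071 (9.01 TPM), Etv1 in CC030 (3.68 TPM) and Etv4 in CC043 (4.22 TPM), strains in which Fgfr3 was lower than the rest. Heparan sulfate enzymes passed in 12 of 13, with Sulf2, an extracellular sulfatase, from 8.65 TPM in CC061 to 45.1 TPM in CC038. Of 7 genes that act on FGF23 output 6 passed, with Dmp1 from 7.43 TPM in CC051 to 192.3 TPM in CC028 and Phex from 2.43 TPM in CC071 to 83.9 TPM in CC012.

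Several of these downstream genes had negative relations with Fgfr3 and Fgfr2 over the strain means. Fgfr1, related to 4.73% of all genes, was related to none of the 10 feedback inhibitors and none of the 3 Etv factors. Fgfr3 was related to 21.1% of all genes, 10.4% positively and 10.7% negatively. Of the 10 feedback inhibitors 5 were negatively related to Fgfr3, namely Spry2 (−0.71), Dusp4 (−0.59), Il17rd (−0.59), Spred3 (−0.58) and Dusp6 (−0.54), and none positively. All 3 Etv factors were negatively related to Fgfr3 (Etv1 −0.65, Etv4 −0.57 and Etv5 −0.43). The same 5 inhibitors and all 3 Etv factors were negatively related to the osteoblast score. Dusp4 (0.85), Dusp6 (0.56), Etv1 (0.71) and Etv5 (0.71) were positively related to the macrophage score; the part of either score in these relations was not tested. Fgfr2, related to 20.9% of all genes, had 4 of 10 inhibitors negative and none positive. Among genes that act on FGF23 output, Phex (0.75), Galnt3 (0.70), Vdr (0.70) and Fam20c (0.51) were positively related to Fgfr3 and Furin (−0.43) negatively. Fgf2 was related to Etv4 (0.54), and Fgf9 to Spry1 (0.59).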

How the data were processed

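Ribosome-depleted RNA sequencing of 96 samples was analysed, from a table in which the authors deposited TPM values per transcript; per the labels' protocols, a stranded kit was used on 200 ng of RNA. The submitters' processing notes name Bowtie and mm9; the quantifying program is not given in the sources used. Each of 96 columns summed to 1000000. Of 94545 transcripts, 91225 matched GENCODE vM21 and were summed to 37945 genes. TPM values were scaled by a trimmed mean of log ratios (30% by ratio, 5% by level, genes of at least 1 TPM; factors 0.772 to 1.27) and tested as log2(TPM + 0.5) with limma 3.58.1 in R 4.3.3, with Benjamini-Hochberg adjustment at 0.05, on genes of at least 0.5 TPM in 2 libraries. Fold differences are on that log2 scale. The scripts were tested on simulated data. TPM keeps no depth; reads were estimated from the steps of low values (71.0% of them whole within 0.1 read, where chance gives 20%), and they cover counting error only. Relations used 42 strain means and 10 covariates (8 members and 2 scores), with two-sided permutation tests. Alternatives were other pseudocounts, scalings and filters, 1 CC030 run, strains with close or distant title numbers, marker scores as covariates, and leaving out libraries or strains. Named genes are, from each pathway list, the 3 highest in level and the 2 with the widest range among those past the test, and for each member the 5 most and 2 least alike (2 of these genes are not reported here); strains are the highest, the lowest and those past the threshold. Genes outside this rule (Fgfr4, Kl, Nudt6 and single genes within list counts) were named after their values were seen. The members and lists were chosen with earlier results of these data known. No genome coordinates are printed, because the builds differ.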

Additional observations from a re-analysis of the deposited data

Results flagged for a closer look

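In strains with 4 libraries, 6 of 48 member and strain combinations had 1 library far from the other 3. The chance rate of about 1 in 20 holds for continuous values and not for Fgf23 at a few reads. The count therefore cannot be set against that rate. In CC041, replicate 4 had 47.1 TPM of Fgfr1 beside 30.2 to 31.7 TPM in the others. In CC015, replicate 1 had 1.88 TPM of Fgf18 beside 0.744 to 0.795 TPM, and the higher call of that strain (0.55) became 0.33 (adjusted p = 0.23) without it. Fgf23 accounts for the other 4, all but 1 at a few reads. CC004 replicate 2 had 0.520 TPM beside 0.0558 to 0.0843 TPM. CC008 replicate 3 had 0.185 TPM beside 0.0160 to 0.0342 TPM. CC025 replicate 1 had 0.0189 TPM and CC041 replicate 2 had 0.0251 TPM, and in both strains the other 3 libraries were at 0. With the others at 0 any level above 0 is marked.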

How the results depend on the processing

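No paired analysis was possible because replicate numbers in the labels name libraries within a strain and pair none across strains. Other pseudocounts, median-ratio scaling and the first CC030 run alone left every member's strain call past the threshold and the pair count within 1.5 times; with TPM as deposited 4 of 28 pairs were related in place of 7. Of the 55 strain contrasts 9 missed the threshold with TPM as deposited and 9 with no filter on low values, where 4 strain calls of member transcripts were lost too. Strains with title numbers 20 or more apart (20 strains) gave 6512 of 15760 genes, 27 list genes and 15 of 160 strain contrasts. Of the members 5 passed (Fgfr2, Fgfr3 and Fgf7 missed, adjusted p = 0.12, 0.14 and 0.15). These strains also gave 1 pair and 1 macrophage relation. Strains with close numbers (19) gave 13316 genes, 7 members, 64 list genes, 59 contrasts, 3 pairs and 0 macrophage relations at limma's adjusted threshold, and Fgf23 missed its strain call (0.073). Without the 2 farthest strains 4 pairs remained past the threshold. Leaving out 1 library gave 12532 to 13250 genes, 7 to 8 members, 58 to 63 list genes, 51 to 65 strain contrasts and 31 to 35 member transcripts; leaving out 1 strain gave 3 to 8 pairs (3 without CC030), 2 to 4 osteoblast and 2 to 3 macrophage relations. With the marker scores as covariates 37 strain contrasts passed; 24 of the 55 missed the threshold and 2 changed sign (Fgfr3 in CC030 0.28, in CC071 0.23). Small values changed sign without being called: Fgf7 with the osteoblast score (0.102 in close strains, 0.0591 without the 2 farthest, −0.0767 to 0.104 without 1 strain), Fgf9 with it (0.235 in distant strains, 0.0694 without the 2 farthest, −0.133 to 0.121 without 1 strain) and Fgf9 with the macrophage score (0.0313 in close strains). The cause of these changes was not tested. Depth limits Fgf23 and Fgf18, at medians of about 1.02 and 16.5 reads.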
